A study of Mus musculus with 2 samples.

Results

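The miR-17~92 cluster is a group of 6 miRNA genes, Mir17, Mir18, Mir19a, Mir20a, Mir19b-1 and Mir92-1, that are cut from 1 noncoding transcript, Mir17hg. The members were chosen by position, as the rows whose Ensembl identifiers belong to the chromosome 14 hairpins of Mir17hg, and all 6 had a row in both count tables. They are 6 of 1973 miRNA genes in the tables. The data came from microRNA sequencing of the neural tube, the embryonic tissue that forms the brain and spinal cord, of B6NCrl mice at embryonic day 14.5. There was 1 group of 2 libraries: replicate 1 from pup 1 of dam 1 and replicate 2 from pup 1 of dam 2, collected on 1 day. The labels call each sample a single neural tube and yet give its sex as pooled, which was left unresolved. The size range of the RNA is labelled as below 30, with no unit. The design had no second tissue, age, genotype or treatment, so it allows a description of levels and of the distance between 2 litters with 1 library each.

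In animals a long primary transcript is cut into hairpins, and each hairpin into a short duplex, 1 arm of which, the guide, is loaded into an Argonaute protein. Bases 2 to 8 of the guide, the seed, pair with target mRNAs and lower their output, so miRNAs with a common seed share many targets. The miR-17~92 transcript is driven by Myc and E2F factors and is best known for promoting proliferation and survival, among others through the cell cycle inhibitor Cdkn1a and the pro-apoptotic gene Bcl2l11. Mice without the cluster die around birth. In the mouse nervous system the cluster is known to promote expansion of cortical progenitors and survival of limb-innervating motor neurons of the spinal cord.

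The guides of the 6 members fall into 4 seed groups, and they are shown because seeds and near-copies decide how the counts below can be read. All are mouse sequences from RefSeq on GRCm38.p6, 5′ to 3′, from the plus strand of chromosome 14, with the seed in capitals. The guide arm of each hairpin is taken from general knowledge of these miRNAs. The gene counts add up both arms, so they do not show which arm was sequenced.
Mir17, miR-17-5p: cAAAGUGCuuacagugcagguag
Mir20a, miR-20a-5p: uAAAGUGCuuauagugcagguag
Mir18, miR-18a-5p: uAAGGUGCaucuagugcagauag
Mir19a, miR-19a-3p: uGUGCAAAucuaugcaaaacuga
Mir19b-1, miR-19b-3p: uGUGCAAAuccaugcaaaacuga
Mir92-1, miR-92a-3p: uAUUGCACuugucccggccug
Mir17 and Mir20a share a seed and differ at 2 of 23 bases, C1U and C12U, counted from 1 at the 5′ end with the Mir17 base first. The miR-18a guide aligns with that of Mir17 at 17 of 23 bases and carries a seed with 1 base changed, A4G. The miR-19 guides differ from each other at a single base, U11C, with the Mir19a base first, and miR-92a stands apart with a seed of its own.

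Close relatives of these guides are encoded elsewhere, in the Mir106b, Mir93 and Mir25 cluster within Mcm7 on chromosome 5 and in the Mir106a, Mir18b, Mir20b, Mir19b-2, Mir92-2 and Mir363 cluster on the X chromosome. A read that aligned to several positions was given to no gene, which took 32.4% of all reads in replicate 1 and 33.3% in replicate 2. A near relative of Mir17 and one of Mir92-1 are shown with the seed in capitals, from the minus strands of the X chromosome and of chromosome 3, again from RefSeq on GRCm38.p6.
Mir106a, miR-106a-5p: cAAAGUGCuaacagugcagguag
Mir92b, miR-92b-3p: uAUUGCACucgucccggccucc
Among 1005 RefSeq mouse hairpins, with no search of the genome, the guides of Mir17, Mir18, Mir19a and Mir20a had 0 exact copies outside their own gene. The Mir17 guide differs from that of Mir106a at 1 base, U10A, with the Mir17 base first, and the longest stretch they share is 13 bases. The guides of Mir19b-1 and Mir92-1 each had 1 exact copy, in the X-linked Mir19b-2 and Mir92-2. The hairpins of the copied miR-92a pair are printed to show how far the identity runs, on GRCm38.p6 with the longest shared stretch in capitals.
Mir92-1, chr14:115044427-115044506, plus strand: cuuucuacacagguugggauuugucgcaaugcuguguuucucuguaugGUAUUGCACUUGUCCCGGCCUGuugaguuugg
Mir92-2, chrX:52741838-52741928, minus strand: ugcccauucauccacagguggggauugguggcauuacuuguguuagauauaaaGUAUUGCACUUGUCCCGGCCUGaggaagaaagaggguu
The shared stretch has 22 bases, the guide and 1 base before it, so a read of the annotated guide fits both genes. In the miR-19b pair the stretch has 25 bases, the guide and 2 bases before it. The counts of Mir19b-1 and Mir92-1 therefore hold only reads that reached beyond the shared stretch, came from the other arm or carried a distinguishing base, and reads of the shared stretch are missing from both levels by an unknown amount.

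On GRCm38, also called mm10, the GENCODE annotation places Mir17hg at chromosome 14, 115042879 to 115046727, on the plus strand. The 6 hairpins span 836 bases and begin 792 bases after the annotated start of the host gene. Mir17 lies at 115043671 to 115043754, Mir18 at 115043851 to 115043946 and Mir19a at 115044000 to 115044081. Mir20a follows at 115044157 to 115044263, Mir19b-1 at 115044305 to 115044391 and Mir92-1 at 115044427 to 115044506. Gaps between neighbours run from 35 to 96 bases, and all 6 hairpins lie inside an exon of the annotated host transcript, which has 2 exons. RefSeq, on the same build, starts Mir17hg at 115044390, within the end of Mir19b-1, and only Mir92-1 lies wholly inside its entry. The distance to the start and the exon placement therefore hold for GENCODE alone.

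The count tables held 3172235 sense counts on miRNA genes for replicate 1 and 3671915 for replicate 2. Levels are sense counts per 1000000 sense counts on miRNA genes (CPM), and a gene with 0 counts could still have reached 0.946 CPM in the replicate 1 library or 0.817 CPM in that of replicate 2. No length correction was made, since a read covers a whole mature miRNA. Intervals and these limits cover counting error only, since reads are not counted as independent molecules. As a check of the tissue, the 11 listed neural miRNA genes had a summed level of 22536 CPM for replicate 1 and 20209 CPM for replicate 2. Mir137 was the highest of them, with 9594 CPM in replicate 1 and 9321 CPM in replicate 2. Mir9-2, Mir124a-1, Mir124a-2 and Mir124a-3 were at or below 6.62 CPM in both libraries, under the liver marker. The list thus did not stand high as a whole in reads assigned to 1 position. Mir9-3 had 549 CPM in replicate 1 and 486 CPM in replicate 2. Exact copies of these neural guides were not searched, and reads at several positions were left out. The low counts therefore do not show that miR-9 or miR-124 was scarce. Liver Mir122 was low, at 43.5 CPM in replicate 1 and 35.9 CPM in replicate 2. So were 4 measured muscle genes, at 44.1 and 51.7 CPM in sum in replicates 1 and 2. Nearly all of that was Mir206, at 44.1 CPM in replicate 1 and 51.5 CPM in replicate 2. Mir133a-1 and Mir133a-2 had 0 counts, but exact copies of their guides were not searched either. Those 0 counts therefore do not show how much muscle was present.

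The cluster was strongly expressed, and nearly all of its counts in reads assigned to 1 position came from the miR-17 and miR-18 type hairpins. Its 6 genes held 45355 counts in replicate 1 and 78229 in replicate 2. That is 1.43% of sense counts in replicate 1 (exact 95% interval 1.42 to 1.44) and 2.13% in replicate 2 (2.12 to 2.15), a mean of 1.78% ± 0.495 (SD, n = 2). The difference between the libraries far exceeded counting error. All 6 members passed the minimum of 10 counts in at least 1 library, and 0 of 6 had a count on the other strand.

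Mir17, whose guide is the prototype of the family, was the highest member, with 26817 counts and 8454 CPM in replicate 1 and 44568 counts and 12138 CPM in replicate 2. Its mean of 10296 ± 2605 CPM (SD, n = 2) ranked 13 among all 1973 genes, between endothelial Mir126a at 12857 ± 6243 CPM and Mir149 at 10159 ± 1700 CPM. Both neighbours lay within the spread of Mir17, so the rank is not firm, and by library it was 16 in replicate 1 and 13 in replicate 2. Mir20a, which shares the Mir17 seed, had 10021 counts and 3159 CPM in replicate 1, and 18220 counts and 4962 CPM in replicate 2. Mir18, the member with the base-changed seed, had 6407 counts and 2020 CPM in replicate 1, and 11618 counts and 3164 CPM in replicate 2. These genes held ranks 33 and 49 by mean level.

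Mir92-1, whose guide shares its seed with miR-25 and miR-363, had 1984 counts and 625 CPM in replicate 1, and 3651 counts and 994 CPM in replicate 2. It ranked 92 by mean level, with reads of the shared stretch left out. The miR-19 genes lay far below. Mir19a had 106 counts and 33.4 CPM in replicate 1, and 138 counts and 37.6 CPM in replicate 2, a mean of 35.5 ± 2.95 CPM (rank 249). Mir19b-1 had 20 counts and 6.30 CPM in replicate 1, and 34 counts and 9.26 CPM in replicate 2, a mean of 7.78 ± 2.09 CPM (rank 303). The miR-19 hairpins are the members credited with most of the lymphoma-promoting activity of the cluster in mice. How many reads of either miR-19 gene went to several positions was not tested. The guanine and cytosine content of the miR-19a guide was 34.8%, against 47.8% for that of miR-17 and 57.1% for that of miR-92a. The part of base composition in the low counts was not tested.

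**Figure D1:**
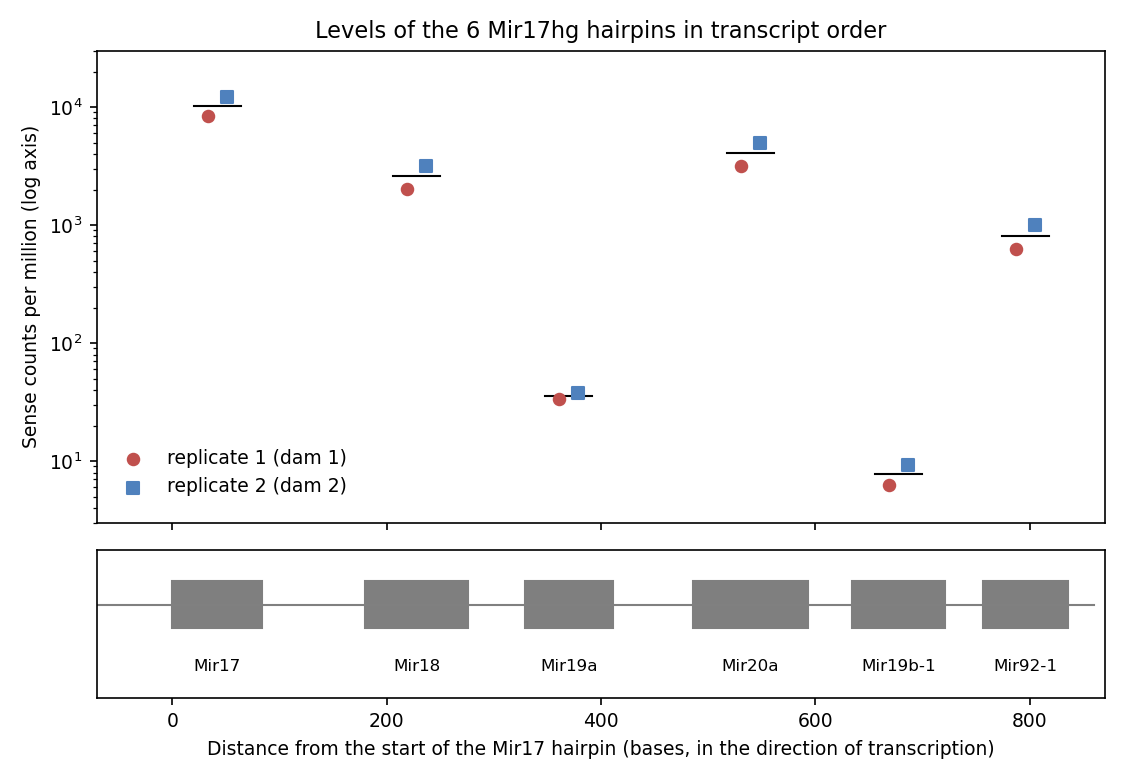
Upper panel, sense CPM on a log axis for each of the 6 members in replicate 1 (circles) and replicate 2 (squares), with the mean as a bar; lower panel, the hairpins to scale by distance in bases from the start of Mir17. Mir17, Mir18, Mir20a and Mir92-1 sit between 625 and 12138 CPM, while Mir19a and Mir19b-1 sit at or below 37.6 CPM. Replicate 1 is the lower library for every member. Reads at several positions are left out of all levels.

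In reads assigned to 1 position, the order of levels was Mir17, Mir20a, Mir18, Mir92-1, Mir19a and Mir19b-1 in both libraries. It did not follow the order on the transcript. Reads of the stretches that Mir92-1 and Mir19b-1 share with their X-linked copies are missing. The places of Mir92-1 and Mir19b-1, and the steps to and from them, are therefore uncertain. Among neighbours by level, only Mir20a and Mir18 had ranges over the libraries that overlapped, at 3159 to 4962 and 2020 to 3164 CPM. Within a library they were nevertheless separated, since Mir20a was 1.56 times Mir18 in replicate 1 (exact 95% interval 1.52 to 1.61) and 1.57 times in replicate 2 (1.53 to 1.61). Mir17 was 2.68 times Mir20a in replicate 1 and 2.45 times in replicate 2. Mir18 was 3.23 times Mir92-1 in replicate 1 and 3.18 times in replicate 2. Mir92-1 was 18.7 times Mir19a in replicate 1 and 26.5 times in replicate 2. The step from Mir17 to Mir19a was 253-fold in replicate 1 and 323-fold in replicate 2. Levels of hairpins that leave the same transcript thus differed by more than 2 orders of magnitude in reads assigned to 1 position.

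Measured against the cluster's own total, which needs no scaling between libraries, the makeup in reads assigned to 1 position was close in both libraries. Reads of the stretches that Mir92-1 and Mir19b-1 share with their X-linked copies are missing from this total. Every share is therefore uncertain by an unknown amount. Mir17 made up 59.1% of the cluster in replicate 1 (exact 95% interval 58.7 to 59.6) and 57.0% in replicate 2 (56.6 to 57.3). Mir20a took 22.1% and 23.3%, Mir18 14.1% and 14.9%, and Mir92-1 4.37% and 4.67% in replicates 1 and 2. The intervals of Mir17, Mir20a and Mir18 did not overlap between the libraries, and those of Mir92-1 did. The shifts were small all the same, at most 2.16 percentage points, that of Mir17. Mir19a held 0.234% in replicate 1 and 0.176% in replicate 2 with overlapping intervals, 0.191 to 0.283 and 0.148 to 0.208. Mir19b-1 held 0.0441% in replicate 1 and 0.0435% in replicate 2.

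**Figure D2:**
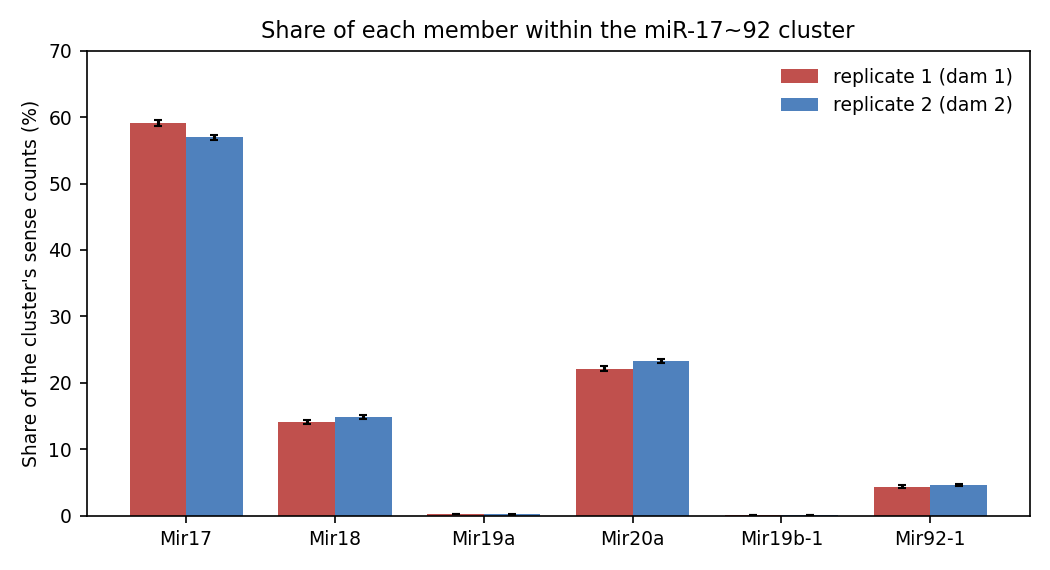
Share of the cluster's sense counts taken by each member in percent, replicate 1 beside replicate 2, with exact 95% binomial intervals that cover counting error only. Mir17 takes 59.1% in replicate 1 and 57.0% in replicate 2, and Mir19a and Mir19b-1 are too small to see at this scale. Reads at several positions are left out of all shares.

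The cluster as a whole was lower in replicate 1 than in replicate 2, by less than 2-fold. Scaled by total sense counts, its sum was 14298 CPM in replicate 1 and 21305 CPM in replicate 2, 1.49-fold lower in replicate 1. The log2 ratio of replicate 1 over replicate 2 was -0.58 (exact 95% interval -0.59 to -0.56). In bulk tissue, fewer cells of a type and less of a miRNA per cell cannot be told apart. With 1 library per dam the ratio has no replicate check, so no p-value is given and a gene is called only by a ratio of at least 2-fold. The cluster ratio has to be read against all 360 genes tested, which are those reaching 10 counts in either library. Their median log2 ratio was -0.23 on this scaling and -0.02 with the trimmed mean of M-values (TMM). Relative to that median the cluster stood at -0.34, a value that scaling cannot change, since it shifts every gene alike.

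Mir17 had a log2 ratio of -0.52 (exact 95% interval -0.54 to -0.50), Mir18 one of -0.65 (-0.69 to -0.60), Mir20a one of -0.65 (-0.69 to -0.62) and Mir92-1 one of -0.67 (-0.75 to -0.59). Mir19b-1 stood at -0.55, with an interval of -1.43 to 0.28 that its 20 and 34 counts could not narrow. Mir19a stood at -0.17 (-0.55 to 0.21) and turned to 0.04 with TMM scaling, so its direction was not established. On total counts 6 of 6 members had ratios below 0, against 71.4% of all genes tested, and with TMM 5 of 6 did, against 51.4%. A ratio at least 2-fold lower in replicate 1 was found for 0 of 6 members on either scaling, against 11.7% of all genes tested on total counts and 8.61% with TMM. Of the 360 genes, 11 were at least 2-fold higher in replicate 1 and 42 at least 2-fold lower, or 16 and 31 with TMM. The median of the 6 members was -0.60, or -0.39 with TMM. The ratio of the cluster sum was not extreme, since 86 of the 360 genes had a ratio as low or lower.

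**Figure D3:**
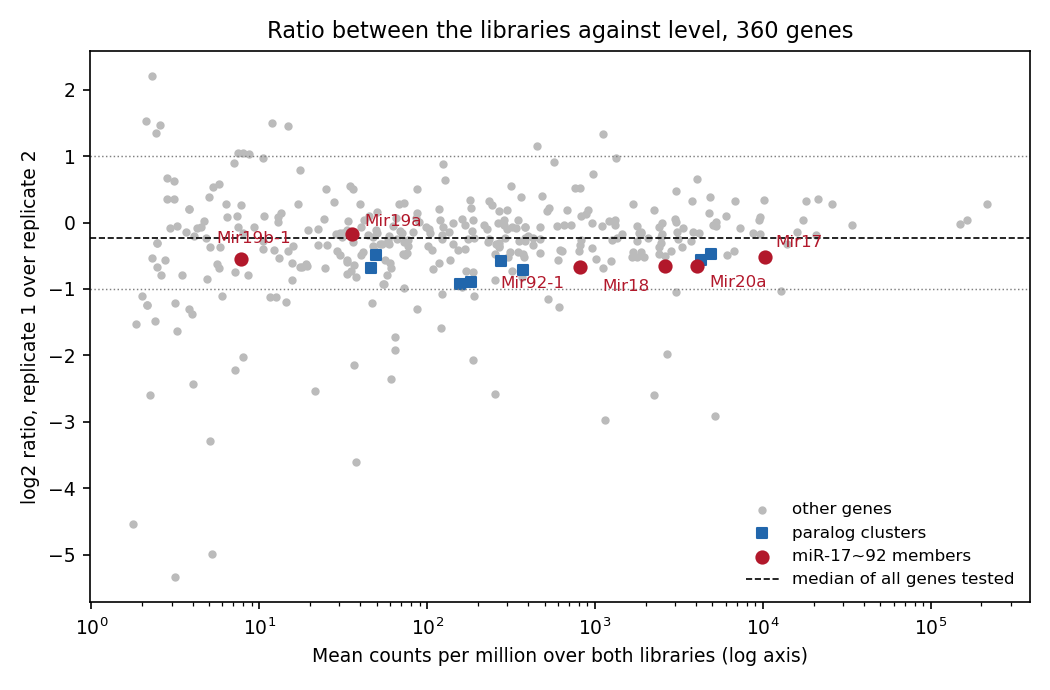
Log2 ratio of replicate 1 over replicate 2, scaled by total sense counts, against mean CPM on a log axis for the 360 genes tested; dashed line, median of all genes (-0.23); dotted lines, 2-fold. The 6 cluster members (circles) lie between -0.67 and -0.17 and the paralog genes (squares) between -0.92 and -0.48, none of them past the 2-fold line.

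Markers of several other cell types were also lower in replicate 1, sensory, mesenchymal and myeloid ones by more than 2-fold on either scaling. The 3 sensory miRNA genes Mir96, Mir182 and Mir183 had a summed level of 2109 CPM in replicate 1 against 15050 CPM in replicate 2. The 6 mesenchymal genes, which include Mir143 and Mir214, summed to 1197 CPM in replicate 1, against 4894 CPM in replicate 2. Endothelial Mir126a stood at 8443 CPM in replicate 1 and 17271 CPM in replicate 2, a log2 ratio of -1.03, or -0.82 with TMM. Myeloid Mir223 had 19.9 CPM in replicate 1 and 102 CPM in replicate 2, and the erythroid pair Mir451a and Mir144 summed to 76.6 CPM in replicate 1, against 107 CPM in replicate 2. Genes at least 2-fold lower in replicate 1 were 3 of 3 sensory, 5 of 5 tested mesenchymal and 1 of 1 myeloid. Endothelial genes counted 1 of 1 and erythroid 0 of 2, against 11.7% of all genes tested, all on total counts. The lists were chosen with earlier results of these data known, so these counts are not independent of the data. The neural list, which holds Mir92b too, ran the other way, with a log2 ratio of its sum of 0.16 on total counts. Only 1 of 9 tested neural genes, Mir124a-2, had a ratio below 0, against 71.4% of all genes tested. The cluster is expressed in dividing cells of many tissues, and the part of these cell types in its ratio was not tested.

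In reads assigned to 1 position, the paralog clusters lay below the cluster in level and had ratios between the libraries in the same direction. The Mcm7 cluster held 7861 CPM in replicate 1 against 11317 CPM in replicate 2, and the X-linked cluster 534 CPM in replicate 1 against 887 CPM in replicate 2. The miR-17~92 sum was 1.82 times the Mcm7 cluster in replicate 1 and 1.88 times in replicate 2. It was 26.8 times the X-linked cluster in replicate 1 and 24.02 times in replicate 2. It made up 63.0% of the 3 clusters together in replicate 1 and 63.6% in replicate 2. Reads of the shared miR-92a and miR-19b stretches fit both miR-17~92 and the X-linked cluster and are in neither sum. The multiples and shares of the sums are therefore uncertain by an unknown amount. Of the 8 paralogs tested, 8 had ratios below 0 on total counts, against 71.4% of all genes tested, and 0 were at least 2-fold lower, against 11.7%. Log2 ratios of the sums were -0.53 for the Mcm7 cluster and -0.73 for the X-linked cluster, with exact 95% intervals of -0.55 to -0.50 and -0.82 to -0.65, against -0.58 for miR-17~92. With TMM they were -0.31 for the Mcm7 cluster, -0.52 for the X-linked cluster and -0.36 for miR-17~92. The remaining paralog, Mir19b-2, had 4 counts in each library and was not tested.

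Of the 4 seeds, that of miR-17 had the highest level in reads assigned to 1 position, and the cluster supplied most of it. Reads of the shared miR-92a and miR-19b stretches are missing from the totals of their seeds. How the seeds would rank with those reads is therefore not known. Genes whose guides carry this seed together held 19426 CPM in replicate 1 against 28392 CPM in replicate 2, of which Mir17 and Mir20a gave 59.8% in replicate 1 and 60.2% in replicate 2. Mir93 and Mir106b, the Mcm7 genes with that seed, had 4112 and 3467 CPM in replicate 1 and 5727 and 5126 CPM in replicate 2. Both lay close to Mir20a, and their ranges over the libraries overlapped with its range. The X-linked genes were far lower. Mir17 was 66.5 times Mir106a in replicate 1 and 51.6 times in replicate 2, although their guides differ at 1 base. Mir20a was 29.3 times Mir20b in replicate 1 and 24.3 times in replicate 2, and Mir18 was 48.9 times Mir18b in replicate 1 and 54.5 times in replicate 2. Mir18 gave 98.0% of the counts with the miR-18 seed in replicate 1 and 98.2% in replicate 2.

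For the miR-92 seed the cluster was a minor source among reads assigned to 1 position. Mir92-1 gave 16.7% of the seed's counts in replicate 1 and 22.2% in replicate 2, with its level uncertain because of the copy in Mir92-2. Mir92b, a relative known from neural progenitors, was the highest gene with this seed, at 2499 CPM in replicate 1 and 2497 CPM in replicate 2. Its guide, printed above, differs from that of Mir92-1 at U10C and G21C over 21 bases, the Mir92-1 base first. Mir92b was 3.996 times Mir92-1 in replicate 1 and 2.51 times in replicate 2. Its log2 ratio was 0.00 (exact 95% interval -0.04 to 0.04), against -0.67 (-0.75 to -0.59) for Mir92-1, so these seed relatives differed in their ratios beyond counting error. With TMM these were 0.21 for Mir92b and -0.46 for Mir92-1. Mir25 had 282 and 464 CPM, Mir363 221 and 331 CPM and Mir92-2 35.6 and 57.5 CPM in replicates 1 and 2. Mir92-1 was 17.6 times Mir92-2 in replicate 1 and 17.3 times in replicate 2, a comparison that rests on reads outside the shared stretch. Genes with the miR-19 seed summed to 41.0 CPM in replicate 1, against 47.9 CPM in replicate 2. Mir19a and Mir19b-1 gave 96.9% of these counts in replicate 1 and 97.7% in replicate 2. Reads of the shared miR-19b stretch are missing from these sums and shares.

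**Figure D4:**
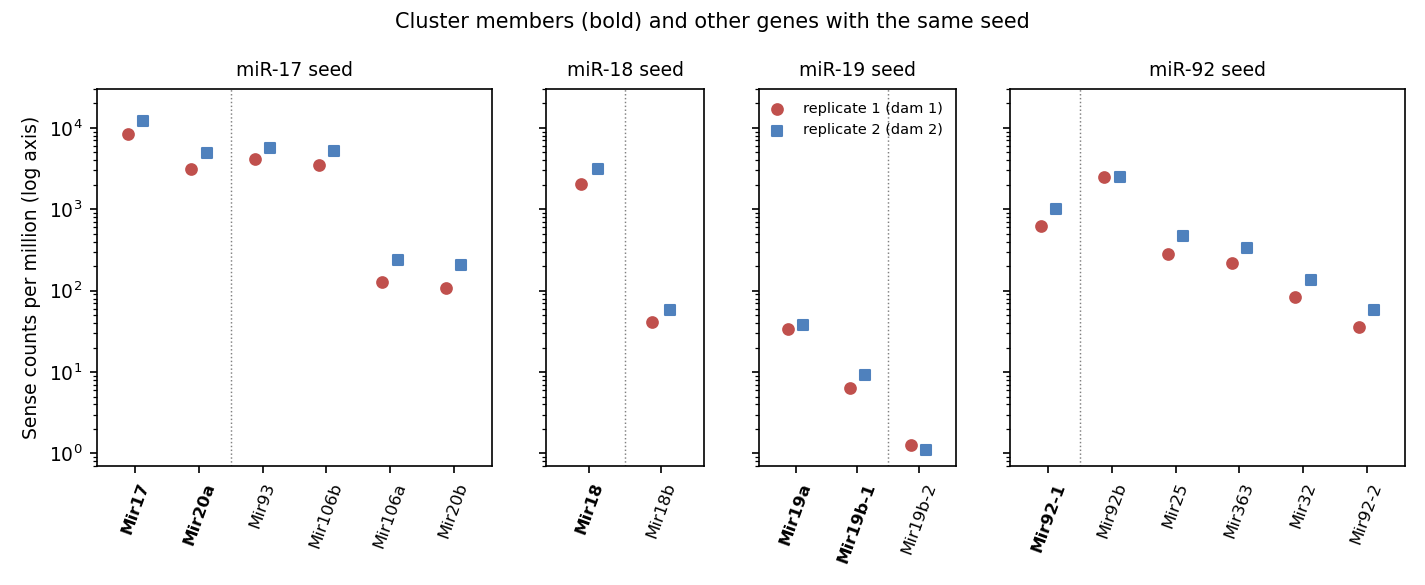
Sense CPM on a log axis by seed group, in replicate 1 (circles) and replicate 2 (squares). Cluster members (bold) stand left of the dotted line, beside the other genes with the same seed that had counts. Mir6383 of the miR-17 group and Mir367 of the miR-92 group had 0 counts in both libraries and are not shown. Reads at several positions are left out, among them reads of the stretches that Mir92-1 and Mir19b-1 share with their X-linked copies. Mir17 is the highest gene of its seed group, Mir92b exceeds Mir92-1 in the miR-92 group at 2499 CPM in replicate 1 and 2497 CPM in replicate 2, and the miR-19 group stays at or below 37.6 CPM.

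The genes most like the cluster in how they differed between the libraries were sought by the distance of their log2 ratio from that of the cluster sum, over 2 libraries and 269 genes outside these clusters with at least 100 counts in all. They were Mir181b-2 and Mir103-2 on chromosome 2, the stem cell gene Mir302a on chromosome 3, and Mir341 and Mir410 of the imprinted locus on chromosome 12. Their log2 ratios lay between -0.58 and -0.56, within 0.016 of the cluster. Levels ranged from 26.8 CPM in replicate 1 and 39.5 CPM in replicate 2 for Mir103-2 to 993 CPM in replicate 1, against 1483 CPM in replicate 2 for Mir181b-2. A match over 2 libraries is 1 number per gene, so the likeness is weak.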

How the data were processed

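MicroRNA sequencing libraries were made from neural tube total RNA, 1 for each of 2 pups. The authors deposited 1 table of raw counts per library, with a row per miRNA gene and columns for either strand, the sense strand and the other strand. Notes deposited beside the tables name mm10 and annotation M4. No aligner, trimming or filter is named in the sources used here. The 4 rows that name no gene stayed out of library sizes: unmapped reads were 11.5% and 11.8% of all reads in replicates 1 and 2, reads at several positions 32.4% and 33.3%, reads on no gene 2.75% and 3.01%, and ambiguous reads 0%.

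Identifiers were matched without version to GENCODE M21 (GRCm38). Of 1973, 1894 matched, and the 79 others held 1 count in each library. CPM and log2 ratios used total sense counts, with 0.5 added to both counts of a gene at 0 in either library. TMM factors came from edgeR 4.0.16 and size factors from DESeq2 1.42.0, under R 4.3.3. Intervals are exact 95% binomial. The ratio step was tested on simulated counts that held counting error alone. That test therefore does not cover variation between litters. With 1 library per dam, edgeR's quasi-likelihood test had no residual degrees of freedom. Sequences were copied from RefSeq tables, in which all 6 members and 10 relatives matched. Python 3.11.15, numpy 2.4.6, pandas 2.3.3, scipy 1.17.1 and matplotlib 3.10.9 were used.

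Genes named are the members, the paralogs, Mir92b, the tissue markers, the rank neighbours of Mir17 and the 5 genes nearest in ratio. The members and lists were chosen with earlier results of these data known. Mir1a-2, a listed muscle gene, matched no row by name and so was not analysed here.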

Additional observations from a re-analysis of the deposited data

How the results depend on the processing

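No paired analysis was possible because the study has 1 group. The cluster sum's log2 ratio was -0.36 with TMM, -0.35 with DESeq2's size factors, -0.50 on totals without Mir10b and -0.57 on both strands. It was -0.61 on totals without the endothelial, myeloid, mesenchymal and sensory markers, an alternative chosen after seeing the data. Members past 2-fold numbered 0 under each of these 5. With DESeq2's size factors 17 genes were at least 2-fold higher in replicate 1. With no filter beyond 1 count, 165 genes were at least 2-fold lower and 72 higher, and with at least 100 counts 21 and 2. Mir19a turned above 0 with TMM (0.04) and DESeq2's size factors (0.06). Over all reads in the tables the cluster took 0.935%. Without either replicate, its share ranged from 1.43% to 2.13% and that of Mir17 within it from 57.0% to 59.1%. Adding the counts assigned to the X-linked copies gave Mir92-1 4.77% and Mir19b-1 0.0506% of the cluster, against 4.52% and 0.0438%. Reads that fit both copies are in neither count, so this alternative could not recover them. Depth limits Mir19b-1 and Mir19a, and n = 2 limits every SD.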
